A study of Drosophila melanogaster with 6 samples.

Results

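A set of 10 genes that drive or restrain S phase and the endocycle was followed in enteroblasts (EBs), the daughters of the intestinal stem cells of the adult Drosophila midgut. They were CycE, dap, fzr, Dp, dup, Mcm2, Mcm5, Mcm6, Mcm7 and RnrS, 10 of the 17321 genes in the per-library table. The rule that picked them used names and no measured value, but it was set with earlier results of these data known. Each gene was read from its transcript with the highest mean. All 10 were present and passed the filter on low values, which kept transcripts averaging 10 or more across the 6 libraries. The table lists fzr under its older symbol rap, so that gene was matched by its identifier.

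RNA-seq was made from EBs of 3 control pools and 3 Sox21a pools, each pool coming from around 150 female flies kept for 16 to 18 days at 25 °C. Control flies are Sox21a/+ in the study's methods and wild-type in its sample labels, and the mutants are homozygous for a CRISPR-made Sox21a allele with a small frameshift deletion in the DNA-binding domain. Which of the study's alleles was sorted is not given in the sources used here. Both groups carry Su(H)GBE-Gal4 and UAS-CD8::GFP, so the sorted cells are those in which a Notch-responsive driver is active, and the labels place them in the anterior midgut. Sox21a itself, the mutated gene, was 16080.3 ± 1718 in control and 16065 ± 2566 in Sox21a EBs (mean ± SD, n = 3 in this and every later pair), so the amount of its RNA cannot serve to check the genotypes.

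In a mitotic cell, S phase starts when Cyclin E and its kinase partner become active and E2F with its partner Dp switches on the genes of DNA synthesis. Before that, replication origins are licensed: Dup (the fly Cdt1) and the origin recognition complex load the ring of Mcm2 to Mcm7, which later unwinds the DNA. The endocycle repeats S phase without mitosis; Fzr, the fly Cdh1, turns on the anaphase-promoting complex (APC/C) to destroy mitotic cyclins, and Dacapo (dap), the p21/p27-type inhibitor of Cyclin E and Cdk2, holds cells out of S phase. EBs do not normally divide, and those that become enterocytes go through endocycles and grow into large polyploid cells.

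Of the 10 genes, 6 rose in Sox21a EBs: the licensing factor dup, all 4 helicase subunits Mcm2, Mcm5, Mcm6 and Mcm7, and RnrS, the small subunit of the enzyme that makes deoxyribonucleotides. The inhibitor dap fell. The change of fzr, Dp and CycE did not pass the test, although each Sox21a library was below each control library for fzr and above for Dp. The test was limma on log2(value + 1), with Benjamini-Hochberg adjustment over 11400 transcripts and a call at an adjusted p under 0.05; an exact permutation test of 3 against 3 libraries cannot give a two-sided p under 0.1. Over all 9571 tested genes, 24.2% were called higher and 10.2% lower, so that 6 higher and 1 lower among 10 genes stand beside these shares.

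The 2 groups are not centred on the same level. The median log2 fold change, Sox21a over control, was 0.24 over all tested genes and 0.80 over the 10 genes. After rescaling every library by median-of-ratios factors, the median of all genes moved to 0.05 and that of the 10 genes to 0.61. All 7 calls were kept under that scaling and fzr joined dap as lower, which made 2 genes lower, while the shares of all genes became 17.2% higher and 15.1% lower.

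**Figure D1:**
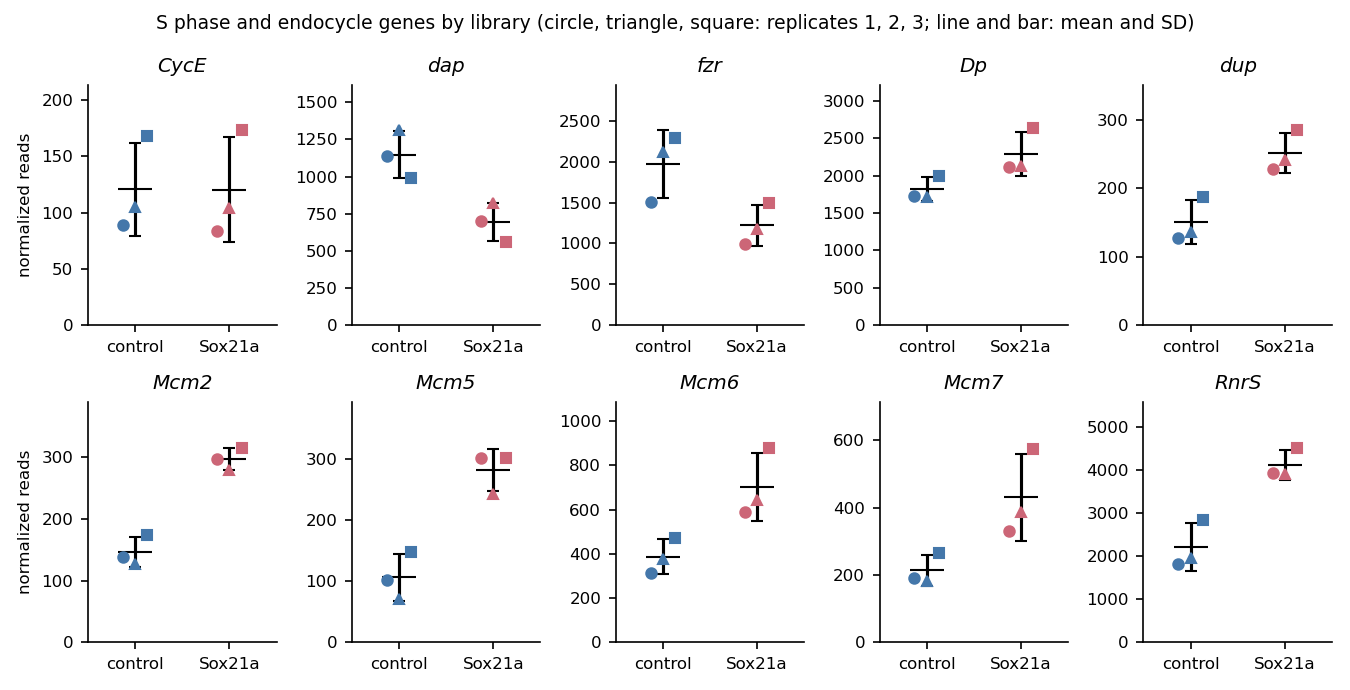
Normalized reads (reads divided by a size factor, linear axis from 0) of the 10 genes in each library; circles, triangles and squares are replicates 1, 2 and 3, blue for control and red for Sox21a, with the mean as a line and the SD as a bar. The groups overlap for CycE alone: dap and fzr lie lower in every Sox21a library, and the other 7 genes lie higher. Over all tested genes, 35.8% had each Sox21a library above each control library, and 15.2% had each below.

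The values are normalized reads, and in each library they are whole multiples of a step, taken here as what 1 read was worth. Library totals ran from 37286049 to 45955837 steps, and the 10 genes lay between 63 steps (Mcm5 in control replicate 2) and 4579 steps (RnrS in Sox21a replicate 3), all above the detection limit of 5 steps. Messenger RNA had been amplified linearly from 2 ng of total RNA, which can favour some transcripts, and such reads are not independent molecules. In bulk RNA, more cells in S phase and more of these transcripts in each cell cannot be told apart. Of 6 progenitor markers 2 were called lower, esg, a transcription factor of progenitors (from 40916 ± 5641 to 14335 ± 2082), and the Notch target E(spl)mbeta-HLH, and the sum of the 6 ran from 67682 to 84885 in control and from 37372 to 51043 in Sox21a EBs. The 9 enterocyte markers, such as the gut protease genes, of which 5 were called lower, summed to between 55419 and 95514 in control and between 22127 and 27387 in Sox21a EBs. Dl, the ligand that marks stem cells, was 445 ± 107 in control and 624 ± 297 in Sox21a EBs (log2 fold change 0.42, adjusted p = 0.37).

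The entry switch comes before everything else in S phase. CycE (FBgn0010382, chromosome 2L from 15727581 to 15748150 on the minus strand of the Release 6 genome) encodes Cyclin E. Its normalized reads were 88.96, 105 and 168 in control replicates 1, 2 and 3 and 84.00, 104 and 173 in Sox21a replicates 1, 2 and 3. In both groups replicate 1 was lowest and replicate 3 highest, and the groups covered nearly the same range. On the log2 scale the difference was -0.02, with a standard error of 0.33 and an adjusted p of 0.97. Leaving out each library in turn moved it from -0.31 to 0.25, so its sign was not fixed by these libraries. Taking the replicate number as a block narrowed the standard error to 0.12, and the difference stayed at -0.02 (adjusted p = 0.93). Of 6 annotated CycE transcripts the table holds 1.

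Cdk2, the kinase that Cyclin E activates, was 111 ± 50.9 in control and 102 ± 21.00 in Sox21a EBs (log2 fold change -0.04, adjusted p = 0.94). The partners therefore showed no detected change at the level of RNA, with a standard error of 0.34 for Cdk2, so that changes of modest size would not be seen.

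The inhibitor of that kinase did change. dap (FBgn0010316, 2R, 9712321 to 9716256, plus strand) gave 1139.9, 1312 and 992 normalized reads in control and 700.0, 822 and 561 in Sox21a replicates 1, 2 and 3. The highest Sox21a library, replicate 2, was below the lowest control library, replicate 3, and in each group replicate 2 was highest and replicate 3 lowest. The mean fell from 1148 ± 160.1 to 694 ± 131, which is 0.605 of the control mean (log2 fold change -0.73, standard error 0.20, adjusted p = 0.028). Under rescaling it was -0.93 (adjusted p = 0.024). The call was lost without control replicate 2 (adjusted p = 0.089), Sox21a replicate 1 (0.076) or Sox21a replicate 3 (0.077), with the log2 fold change still between -0.86 and -0.59. Set against its target within each library, CycE/dap was 0.0780, 0.0800 and 0.169 in control and 0.120, 0.127 and 0.309 in Sox21a replicates 1, 2 and 3. Each Sox21a ratio was above the control ratio of the same number, but the ranges overlapped because control replicate 3 lay above Sox21a replicates 1 and 2.

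Dp (FBgn0011763, 2R, 13222433 to 13228202, plus strand) encodes the partner that E2F proteins need to bind DNA. Its main transcript, Dp-RB, gave 1728, 1720.4 and 2002 normalized reads in control and 2114, 2136 and 2634 in Sox21a libraries. The groups did not overlap, yet the difference did not pass the test (log2 fold change 0.33, standard error 0.16, adjusted p = 0.15), and it shrank to 0.14 under rescaling (adjusted p = 0.45). The other transcript Dp-RA rose from 389.7 ± 53.97 to 593 ± 65.8 (log2 fold change 0.61, standard error 0.17, adjusted p = 0.033), a call lost under rescaling (adjusted p = 0.051). Isoforms of a gene share reads, so the split between Dp-RB and Dp-RA is uncertain. A non-coding gene on the other strand, lncRNA:CR43918, lies inside Dp and was low throughout, at 3.50 ± 1.51 in control and 18.9 ± 5.11 in Sox21a EBs.

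E2f1, the activating E2F, was 3667 ± 360.0 in control and 3440.5 ± 391 in Sox21a EBs (log2 fold change -0.09, adjusted p = 0.68). Because a ratio within a library does not depend on its size factor, E2f1/Dp is free of the scaling: it was 1.98, 2.03 and 2.04 in control and 1.54, 1.49 and 1.48 in Sox21a replicates 1, 2 and 3. This was the tightest ratio looked at, with a spread within each group far below the gap between the groups. The ratio shows that E2f1 and Dp moved unequally and not which of them moved. The pairs of genes set against each other in this way were chosen after their values had been seen, so their ratios are a description without a test.

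dup (FBgn0000996, 2R, 15376619 to 15380988, minus strand) encodes the factor that loads the Mcm ring, and it is normally destroyed in S phase so that no origin is used again. Its normalized reads were 127, 136 and 187 in control and 228, 241 and 284 in Sox21a replicates 1, 2 and 3. The lowest Sox21a library exceeded the highest control library, and in both groups replicate 3 was highest. The mean rose from 150.2 ± 32.4 to 251 ± 29.5, 1.67-fold (log2 fold change 0.75, standard error 0.20, adjusted p = 0.025). Under rescaling the adjusted p was 0.049, next to the threshold. Leaving out control replicate 2 or any Sox21a library ended the call (adjusted p between 0.055 and 0.079), with the log2 fold change between 0.64 and 0.92. dup overlaps SRPK on the other strand by 265 bases, and SRPK itself differed by a log2 fold change of 0.07 (adjusted p = 0.75).

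Geminin, the protein that binds Dup and blocks licensing, was expressed from a gene whose level was 404 ± 40.4 in control and 361 ± 105 in Sox21a EBs (log2 fold change -0.20, adjusted p = 0.53). Within libraries dup/geminin was 0.285, 0.373 and 0.465 in control and 0.663, 0.906 and 0.600 in Sox21a replicates 1, 2 and 3. Each Sox21a library had more dup per geminin than any control library, with Sox21a replicate 2 farthest out.

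Mcm2 (FBgn0014861, 3R, 8264970 to 8267924, plus strand) has the smallest standard error of the 4 helicase subunits among the 10 genes. It gave 139, 126 and 174 normalized reads in control and 297, 279 and 315 in Sox21a replicates 1, 2 and 3. The mean rose from 146 ± 24.7 to 297 ± 17.9, 2.03-fold (log2 fold change 1.03, standard error 0.17, adjusted p = 0.0042). No library decided this call: with each left out in turn the log2 fold change stayed between 0.93 and 1.16 and the adjusted p reached at most 0.020.

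Mcm5 (FBgn0017577, 3R, 10788524 to 10791150, plus strand) had the largest rise of the 10 genes. Its normalized reads were 101, 70.3 and 147 in control and 301, 242 and 300.0 in Sox21a libraries, so that control replicate 3, the highest control, was still well below Sox21a replicate 2, the lowest mutant. The mean rose from 106 ± 38.5 to 281 ± 33.8, 2.65-fold (log2 fold change 1.45, standard error 0.27, adjusted p = 0.0070). It passed in all 6 fits with a library left out, with a log2 fold change between 1.19 and 1.72 and an adjusted p of at most 0.030.

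Mcm6 (FBgn0025815, X, 6674387 to 6677176, plus strand) is the most abundant of these 4 subunits per kilobase of transcript. It gave 313, 377 and 472 normalized reads in control and 587, 644 and 877 in Sox21a replicates 1, 2 and 3. The groups were separate, but Sox21a replicate 3 stood well above its fellows and widened the spread. The mean rose from 387 ± 79.6 to 703 ± 154, 1.81-fold (log2 fold change 0.86, standard error 0.23, adjusted p = 0.025).

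Mcm7 (FBgn0020633, 3L, 8891596 to 8894310, plus strand) showed the same shape. Its normalized reads were 191, 183 and 266 in control and 329, 386 and 574 in Sox21a libraries, with replicate 3 highest in each group. The mean rose from 213 ± 45.6 to 429.8 ± 128, 2.01-fold (log2 fold change 0.99, standard error 0.26, adjusted p = 0.024). The antisense gene asRNA:CR45871 covers 2205 bases of Mcm7 and rose with it, from 28.5 ± 10.3 to 58.6 ± 15.9 (log2 fold change 1.03, adjusted p = 0.035). Whether counting used strand is not described, so reads of Mcm7 and of this partner cannot be told apart. For both Mcm6 and Mcm7 the call was lost without control replicate 2 (adjusted p = 0.070 and 0.077), Sox21a replicate 2 (0.061 and 0.056) or Sox21a replicate 3 (0.071 and 0.058), while the log2 fold change stayed at or above 0.68.

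The 6 subunits of the ring work in equal numbers, so the other subunits were read as well. Mcm3 rose from 52.9 ± 7.95 to 84.2 ± 6.81 (log2 fold change 0.67, adjusted p = 0.021) and dpa, the fly Mcm4, rose from 190.4 ± 19.8 to 269 ± 16.3 (log2 fold change 0.50, adjusted p = 0.040). These subunits were added after their values had been seen. Both calls were lost under rescaling (adjusted p = 0.071 and 0.097), and with each library left out in turn they were kept in 3 and in 1 of 6 fits. With these included, all 6 subunits were higher in each Sox21a library than in each control library, against 35.8% of all tested genes, and their summed normalized reads went from 1097 ± 204 to 2064 ± 319. The subunits did not all keep their ratios. Mcm5/Mcm6 was 0.323, 0.186 and 0.311 in control and 0.513, 0.376 and 0.342 in Sox21a replicates 1, 2 and 3, with a narrow gap between the groups. Mcm2/Mcm7 overlapped, at 0.724, 0.689 and 0.654 in control and 0.903, 0.723 and 0.548 in Sox21a libraries.

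RnrS (FBgn0011704, 2R, 11983145 to 11985393, minus strand) encodes the small subunit of ribonucleotide reductase, which turns ribonucleotides into the deoxyribonucleotides that replication consumes. Its normalized reads were 1815, 1957 and 2847 in control and 3914, 3909 and 4504 in Sox21a replicates 1, 2 and 3. Control replicate 3 was high for its group but remained below each mutant library. The mean rose from 2206 ± 559 to 4109 ± 342, 1.86-fold (log2 fold change 0.92, standard error 0.21, adjusted p = 0.014). The call held with each library left out, though without much room, since the highest adjusted p was 0.049.

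The large subunit of the same enzyme rose further. RnrL went from 974 ± 151 to 4439 ± 563 (log2 fold change 2.19, standard error 0.18, adjusted p = 0.00022). Within libraries RnrS/RnrL was 2.08, 2.17 and 2.48 in control and 0.777, 0.897 and 1.15 in Sox21a replicates 1, 2 and 3. The balance of subunit transcripts therefore differed between the groups by a log2 difference of -1.27, with no overlap and whatever the scaling.

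fzr (FBgn0262699, X, 4667290 to 4679537, minus strand) encodes the APC/C activator that sends cells from mitotic cycles into endocycles. It gave 1508, 2116 and 2293 normalized reads in control and 990.0, 1182 and 1491 in Sox21a replicates 1, 2 and 3. Replicate 1 was lowest and replicate 3 highest in both groups, and the highest Sox21a library was just below the lowest control library. The mean was 1972 ± 412 in control and 1221 ± 253 in Sox21a EBs, 0.619 of the control mean (log2 fold change -0.69, standard error 0.23, adjusted p = 0.054), which misses the threshold. With the replicate number as a block, which takes the shared order of replicates into account, the adjusted p was 0.020, and under rescaling it was 0.025 with a log2 fold change of -0.88. Over all settings its log2 fold change lay between -0.88 and -0.55 and its adjusted p between 0.015 and 0.17. dap and fzr were the only genes of the 10 with each Sox21a library below each control library, a pattern found in 15.2% of all tested genes.

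The other APC/C activator, fzy (the fly Cdc20), which acts in mitosis, rose from 258 ± 69.4 to 678 ± 36.6 (log2 fold change 1.42, standard error 0.22, adjusted p = 0.0032). Within libraries fzr/fzy was 8.19, 7.86 and 7.13 in control and 1.51, 1.64 and 2.27 in Sox21a replicates 1, 2 and 3, the widest gap of the ratios between a gene and its partner. fzy overlaps cact on the other strand by 62 bases, and cact had a log2 fold change of 1.05 (adjusted p = 0.0019).

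**Figure D2:**
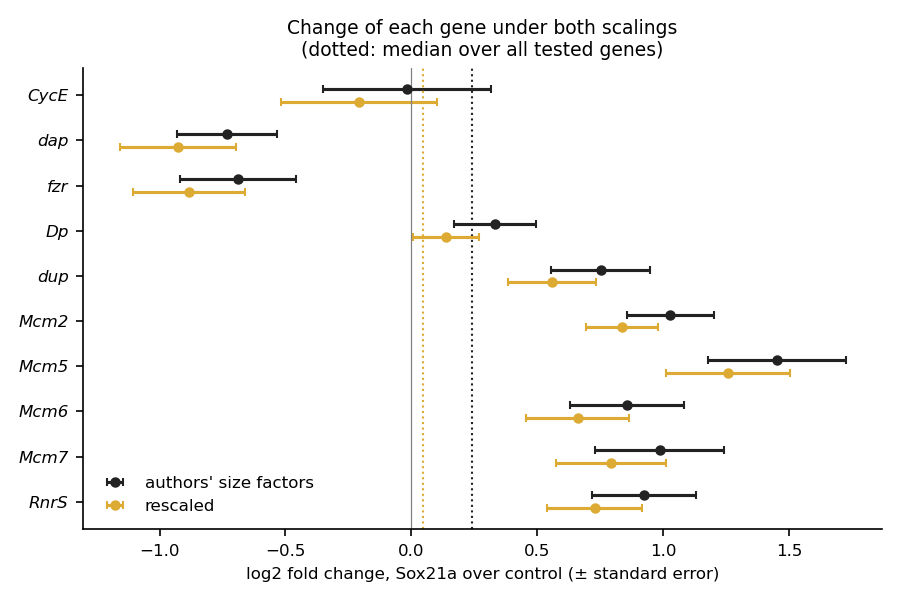
Log2 fold change of each of the 10 genes, Sox21a over control, with its standard error (bars), under the deposited size factors (black) and after median-of-ratios rescaling (yellow); dotted lines give the median over all tested genes under each scaling, 0.24 and 0.05. Rescaling shifts every gene to lower values by about the same amount, and no gene changes direction.

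Levels of different genes were set side by side after division by transcript length, which assumes that reads grow with length. The amplification can favour some transcripts, so the order of the genes is approximate. Per kilobase, control EBs had RnrS highest at 1385 normalized reads, then fzr (756) and Dp (742), whose ranges overlapped, then dap (454). Mcm6 (139) and Mcm7 (87.1) followed, and Mcm2 (50.4), dup (47.9), Mcm5 (43.3) and CycE (33.0) ended the order, each overlapping its neighbour. In control EBs dap and fzr were both more abundant per kilobase than any of the 4 helicase subunits.

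In Sox21a EBs the per-kilobase order was RnrS (2579), Dp (937), fzr (468), then dap (274), Mcm6 (252) and Mcm7 (175) with overlapping ranges between neighbours. Mcm5 (115) and Mcm2 (102) overlapped each other, and dup (80.0) and CycE (33.0) came last. Mcm6 thus overlapped the range of dap in Sox21a EBs and lay below it in control EBs. CycE kept the same per-kilobase level and ended up alone at the bottom.

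Libraries of the same number behaved alike for these genes. Control replicate 3 was the highest control library for 9 of the 10 genes, all but dap, against 36.6% of all tested genes. Sox21a replicate 3 was the highest mutant library for 8 of the 10, all but dap and Mcm5, against 53.9% of all tested genes. Replicate 3 had the largest total in each group. What the replicates of a number shared was not described, and its part in these values was not tested.

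**Figure D3:**
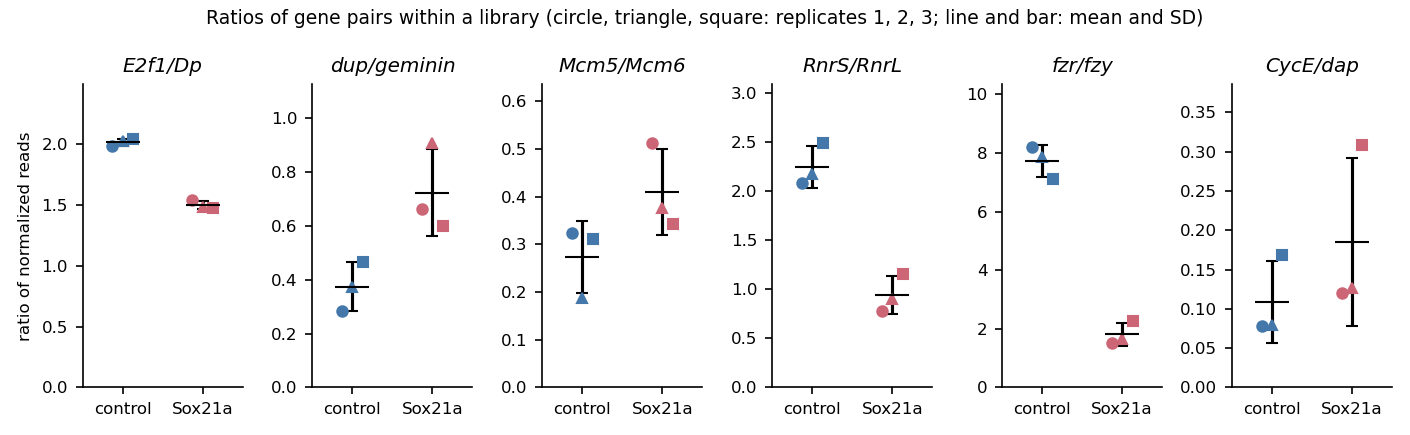
Ratio of normalized reads of 6 pairs of genes within each library (linear axis from 0; circles, triangles and squares are replicates 1, 2 and 3; line and bar give mean and SD). E2f1/Dp, RnrS/RnrL and fzr/fzy are lower in every Sox21a library and dup/geminin and Mcm5/Mcm6 higher, while CycE/dap overlaps between the groups.

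The genes around the 10 were grouped in 8 lists by their step in the cycle, 103 listed genes in all, with earlier results of these data known. Their counts stand beside the shares of all tested genes, which were 24.2% higher and 10.2% lower, 17.2% and 15.1% after rescaling, and 26.0% and 10.8% with the replicate block. In the G1/S list of cyclins, kinases and E2F-Rb factors, which holds CycE, dap and Dp, 2 of 16 genes rose, 2 fell and 12 did not pass, with a median log2 fold change of -0.04 beside 0.24 for all tested genes. The 2 that rose were mip40, a subunit of the complex that holds E2F targets, which went from 407 ± 81.97 to 828 ± 124 (log2 fold change 1.03, adjusted p = 0.0094), and E2f2, the repressing E2F, which went from 201 ± 63.9 to 359.6 ± 26.5 (log2 fold change 0.88, adjusted p = 0.028). With a library left out, the E2f2 call was kept only without control replicate 1, and the adjusted p was otherwise up to 0.086. Besides dap, the gene that fell was Myc, the growth-promoting transcription factor, from 70740.0 ± 13255 to 31213 ± 3071 (log2 fold change -1.17, adjusted p = 0.0039). The span of Myc, introns included, overlaps CG12535 on the other strand and lncRNA:CR44999 on the same strand, so its reads may be partly shared.

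Origin licensing, which holds dup and the Mcm genes, had 11 of 15 genes higher, none lower and 4 not past the threshold, with a median log2 fold change of 0.86. Without dup and the 4 Mcm genes it was 6 of 10 higher. The largest rise among the genes of the 8 lists was in Orc1, the cell-cycle-regulated subunit of the origin recognition complex, from 85.6 ± 13.95 to 744 ± 98.2 (log2 fold change 3.11, standard error 0.18, adjusted p = 6.4e-05). Orc6 went from 227 ± 56.8 to 557 ± 135 (log2 fold change 1.29, adjusted p = 0.0071) and Orc5 from 119.7 ± 27.6 to 236 ± 31.3 (log2 fold change 0.996, adjusted p = 0.013). Cdc6, the loader that acts beside Dup, was 56.98 ± 10.04 in control and 57.3 ± 15.2 in Sox21a EBs (log2 fold change -0.01, adjusted p = 0.98), and its change did not pass the test. Without control replicate 2 or Sox21a replicate 2 the list's count was 6 higher, and without Sox21a replicate 3 it was 7; under rescaling it was 9.

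Of 11 genes of origin firing, 4 rose, 1 fell and 6 did not pass, with a median log2 fold change of 0.42 and 3 higher after rescaling; these counts are not far from the shares of all genes, 24.2% and 10.2%. Mcm10, which helps to start unwinding, rose from 78.6 ± 19.8 to 366 ± 108 (log2 fold change 2.19, adjusted p = 0.0010), Cdc7, the kinase that fires origins by acting on the Mcm ring, rose from 544 ± 152 to 1639 ± 228 (log2 fold change 1.62, adjusted p = 0.0024), and mus101 rose from 36.1 ± 1.61 to 60.7 ± 1.14 (log2 fold change 0.73, adjusted p = 0.0066). The activating partner of that kinase, chif, moved the other way, from 1159 ± 158 to 760.2 ± 35.8 (log2 fold change -0.60, adjusted p = 0.026), a call lost without control replicate 3 or without any of the Sox21a libraries (adjusted p up to 0.10). chif shares 10199 bases with Hyls1 on the same strand, so its reads are uncertain, and Mcm10 shares 367 bases with Ret on the other strand, which had a log2 fold change of 2.53 (adjusted p = 0.00023).

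Among 19 replication fork genes 7 rose and none fell, beside 24.2% of all genes higher. In this list the log2 fold change was above 0 in all 19 under the deposited size factors and in 17 after rescaling, beside 65.5% and 53.1% of all tested genes. The single-strand binding protein led: RpA-70 rose from 1116 ± 308 to 7981 ± 1236 (log2 fold change 2.86, adjusted p = 0.00022) and RPA3 from 176 ± 33.2 to 1152 ± 54.2 (log2 fold change 2.72, adjusted p = 8.6e-05). RfC4, a subunit of the clamp loader, rose from 230.5 ± 86.2 to 975 ± 156 (log2 fold change 2.13, adjusted p = 0.0015), and PCNA, the sliding clamp, rose from 1032 ± 129 to 2509 ± 122 (log2 fold change 1.29, adjusted p = 0.0011). The median of the list was 0.65.

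In nucleotide supply, the list that holds RnrS, 6 of 8 genes rose and none fell, with a median log2 fold change of 1.02. Beside RnrS and RnrL, dUTPase, which keeps uracil out of DNA, rose from 420.2 ± 77.1 to 924 ± 84.5 (log2 fold change 1.15, adjusted p = 0.0034), and Ts, the thymidylate synthase, rose from 162 ± 31.7 to 356 ± 56.00 (log2 fold change 1.14, adjusted p = 0.0061). An antisense gene, asRNA:CR45778, covers 824 bases of dUTPase and had a log2 fold change of 1.15 (adjusted p = 0.0034), so the reads of these genes cannot be told apart either.

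The APC/C list holds fzr. Of the 13 APC/C genes and activators analysed here, 4 rose, none fell and 9 did not pass, with a median log2 fold change of 0.43, and fzr had the lowest value of the list. APC7, at 6.26 ± 4.06 in control and 26.5 ± 5.64 in Sox21a EBs, passed the filter on low values only through the Sox21a group, and control replicate 2 was at the smallest value of its library. Without APC7 the count was 3 of 12, near the 24.2% of all genes. The 3 included fzy and APC4, which rose from 70.1 ± 20.2 to 161 ± 20.01 (log2 fold change 1.23, adjusted p = 0.0097). Without control replicate 1, the list's count became 8 higher and 1 lower, the latter being fzr.

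The cullin ligases that destroy licensing factors and cyclins in S phase had 3 of 9 genes higher and none lower, with a median log2 fold change of 0.49. After rescaling it was 2 of 9, and neither count is far from the share of all genes, 24.2% and 17.2%. pic, the adaptor of the Cul4 ligase that targets Dup, rose from 2229 ± 320.3 to 5367 ± 157 (log2 fold change 1.28, adjusted p = 0.0013). Skp2 rose from 442 ± 100.5 to 782 ± 20.2 (log2 fold change 0.85, adjusted p = 0.017) and Roc1a, a RING subunit, from 3073 ± 578 to 4651 ± 428 (log2 fold change 0.61, adjusted p = 0.038). Without Sox21a replicate 1 or replicate 2 only 1 of the 3 calls in this list remained, and Roc1a was also lost under rescaling (adjusted p = 0.078).

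Mitotic entry genes, which act in dividing cells and not in the endocycle, had 9 of 12 higher and none lower, with a median log2 fold change of 1.10. CycB, the mitotic cyclin that APC/C with Fzr destroys, rose from a low level, from 28.1 ± 10.02 to 139.6 ± 51.9 (log2 fold change 2.27, adjusted p = 0.0037). stg, the Cdc25 phosphatase that triggers mitosis, rose from 71.8 ± 33.4 to 243 ± 48.2 (log2 fold change 1.82, adjusted p = 0.0059), and Klp61F, a spindle kinesin, from 42.04 ± 0.635 to 128 ± 19.8 (log2 fold change 1.57, adjusted p = 0.00055). The count was 5 without Sox21a replicate 1 or Sox21a replicate 3, and under rescaling it was 8 higher and 1 lower, the latter being twe, a further Cdc25 gene. Stem cells are the cells of the midgut that normally divide. Dl overlapped between the groups, at 324, 527 and 483 in control and 477, 428 and 966 in Sox21a replicates 1, 2 and 3. Sox21a replicate 3 was also the highest mutant library for CycB (193) and stg (278), as it was for 53.9% of all tested genes. The part of stem cells and of other sorted cells in these rises was not tested. Of the other genes named from the lists, E2f2, Orc5, Orc6, Ts, Skp2, Roc1a and Klp61F overlap a gene on the other strand by 55 to 462 bases. Some of these neighbours rose as well, such as Sting beside Orc6 (log2 fold change 1.44, adjusted p = 0.0019) and galene beside Klp61F (1.498, 0.00072), and without known strand use their reads may be shared.

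**Figure D4:**
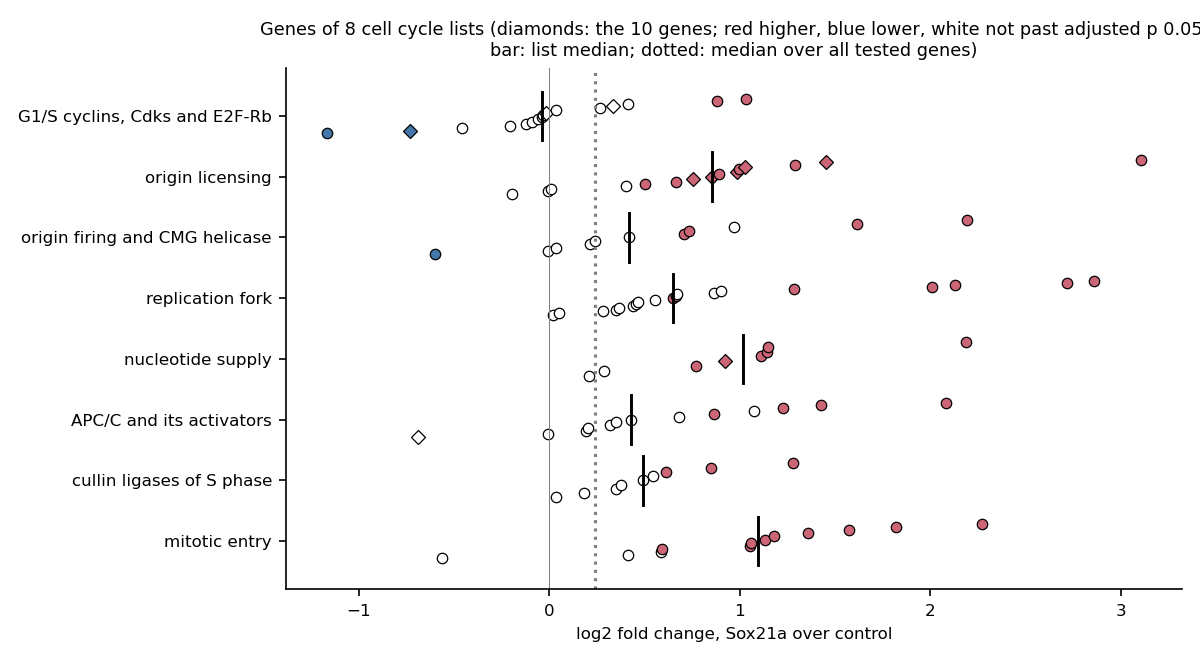
Log2 fold change, Sox21a over control, of each tested gene in the 8 cell cycle lists (diamonds are the 10 genes, circles the others; red higher, blue lower and white not past an adjusted p of 0.05), with the list median as a bar and the median over all tested genes, 0.24, as a dotted line. By their medians, 7 of the 8 lists lie to the right of that line, from 0.42 for origin firing to 1.10 for mitotic entry, and the G1/S list lies to its left at -0.04.

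Markers of other cells that a midgut sort could hold moved too. Of the 10 enteroendocrine markers 7 were tested, 3 being higher and 1 lower. The lower one was the defining transcription factor pros (from 169.6 ± 35.2 to 66.7 ± 34.9). The sum of the 10 markers ran from 1006 to 1440 in control and from 4339 to 6935 in Sox21a EBs. Most of that rise came from nrv3 (from 359 ± 125 to 2400 ± 569) and CCHa2 (from 135 ± 99.8 to 1385 ± 592). The other higher call, Tk, was lost under rescaling (adjusted p = 0.091), and NPF, AstC and Dh31 overlapped between the groups. The 8 tracheal markers summed to between 1511 and 1680 in control and between 2576 and 3262 in Sox21a EBs, with 2 of 4 tested higher. Most of the rise of that sum was btl, the receptor gene breathless (from 767 ± 147 to 1889 ± 384). Whether its RNA came from the EBs themselves or from tracheal cells was not tested here. The other call, trh, which went from 20.8 ± 7.41 to 42.8 ± 8.81, was lost under rescaling (adjusted p = 0.065). The 9 visceral muscle markers were low, with sums between 68.3 and 121 in control and between 162 and 172 in Sox21a libraries. Of 3 tested, 1 was higher, sls (log2 fold change 2.15, adjusted p = 0.0030), also under rescaling (adjusted p = 0.0094). Most of the rise of that sum was sls, and the change of Mlc2 and bt did not pass the test. Among those not tested, Mlp60A went from 2.47 ± 0.556 to 13.9 ± 0.132 without overlap. The others not tested overlapped between the groups, such as muscle myosin Mhc (4.56 ± 3.28 in control and 5.61 ± 4.62 in Sox21a EBs). Of 7 haemocyte markers 2 were tested, crq higher and srp lower; their sum, nearly all of it crq, went from between 9648 and 10337 to between 15371 and 18751, with Hml and He near the lowest value in the table. The part of such cells in the changes of the 10 genes was not tested.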

How the data were processed

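Paired reads were aligned by the authors to genome release 6 with Bowtie2 and counted in exons; versions and strand use are not given in the sources used here. The authors deposited a signal per transcript and library: reads divided by a size factor, in whole multiples of a step, never below 2 steps. Whether 2 was added or set as a floor is not described. A further deposited table holds the authors' fold changes and p-values and was not used. Per-library columns left out numbered 0.

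limma 3.58.1 (R 4.3.3; lmFit, eBayes without trend) was run on log2(value + 1), which understates the change of low transcripts, for transcripts averaging 10 or more, with Benjamini-Hochberg adjustment over all of them. The script was tested on simulated data. Tables and figures used Python 3.11.15, pandas 2.3.3 and matplotlib 3.10.9. Positions come from the Ensembl annotation of Release 6. Overlaps of genes were measured between whole gene spans, introns included, so they do not show how many exon bases are shared. Orc1, Mcm3 and RPA3 did not match the annotation, so their overlaps were not looked up. Replicate numbers come from the titles. Deviations from the group means correlated at 0.171, 0.129 and 0.124 between libraries of the same number and between -0.184 and 0.051 otherwise. These correlations are low, and they depend on each other because the deviations within a group cancel out. They do not settle whether the numbers pair the libraries. Replicates are separate pools of flies.

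The 10 genes and the lists were chosen with earlier results of these data known. All 10 are named. Of each list, the other genes past the threshold with the 3 largest rises and falls are named, and partners of the 10 genes were added after their values were seen. PCNA was named outside this rule, although RPA2 of the same list rose more (log2 fold change 2.01, adjusted p = 0.0025). Alternatives covered the pseudocount, filter, floor, trend, block, scaling, threshold and each library. The listed APC/C gene lmg was not analysed here.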

Additional observations from a re-analysis of the deposited data

How the results depend on the processing

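Of 160 values of the 10 genes under other settings, 130 kept their direction and side of the threshold, 3 of CycE, which was never called, changed sign, 20 kept the direction and lost the call, 7 kept it and gained the call, and 0 reversed a call. The 7 gains were all fzr. The number of the 10 genes called lower was 2, dap and fzr, with a pseudocount of 10, with the replicate block, with rescaling, with rescaling and the replicate block together, with a limma trend, and without control replicate 1. The remaining gain of fzr came without Sox21a replicate 3, where the call of dap was lost. The replicate block changed no other call among the 10 genes. In the lists it gave 9 fork genes higher (Prim2 and PolE1 gained), 4 cullin genes higher, and 10 mitotic genes higher and 1 lower, and in origin firing it gained Psf2 and lost RecQ4 (adjusted p = 0.083). Without a filter on low values, the calls of Mcm6 and Mcm7 were lost (adjusted p = 0.053 and 0.057). At an adjusted p under 0.01, 2 of the 10 genes were higher (Mcm2 and Mcm5) and 0 lower, with 1308 transcripts higher and 597 lower over the whole table. A further requirement of 2-fold or more, an alternative chosen after seeing the data, left 2 higher and 0 lower, and 1399 transcripts higher and 698 lower.

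Of all tested transcripts 2693 were higher and 1293 lower; rescaling gave 1892 and 1916, and rescaling with the replicate block 1891 and 1948. Leaving out each library in turn gave 3 to 6 of the 10 genes higher and 0 to 2 lower, and 1651 to 3424 transcripts higher and 792 to 1627 lower. Without control replicate 2, or without Sox21a replicate 2 or 3, 3 of the 10 genes were higher; without control replicate 2 or Sox21a replicate 1, 0 were lower. Fits with a library left out have fewer samples.

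Planned count tests (edgeR and DESeq2) were not run, because the values hold an unexplained floor or offset of 2 steps. Depth limits Mcm5 most, with 63 steps in its lowest library.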
